A study of Mus musculus with 8 samples.

Results

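The genes described here are 10 genes of arginine and polyamine metabolism, Arg1, Arg2, Nos2, Ass1, Odc1, Azin1, Oaz1, Sat1, Srm and Sms, of 16888 genes in the expression table. They were chosen by symbol and by function, around Arg1, which was already known to be lower in the knockout samples of this table. The difference between the groups is therefore given for these genes as a description, with no p-value, and the number of them called is set beside the share of all genes without support being drawn from it. The data were RNA levels in whole mouse pancreas. In 4 samples the mice lacked Anxa1 in myeloid cells (CKO), and in 4 samples the mice were Anxa1 flox/flox with the gene intact (WT). All 8 samples came from mice that had been given cerulein repeatedly. Cerulein is a peptide that overstimulates the digestive enzyme cells and brings on acute pancreatitis, so no level without pancreatitis was analysed here. Samples are named by group and by the number in their titles, as CKO1 or WT1. The promoter that drives Cre, the strain, the age and the time after the injections are not given in the labels. The labels also do not state that each replicate is its own animal, and p-values therefore measure only the spread between these samples, which may be technical.

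Arginine is a branch point. Arginases split it into urea and ornithine, while nitric oxide synthases use it to make nitric oxide and citrulline, which argininosuccinate synthase (Ass1) and its partner lyase turn back into arginine. Macrophages are known for tilting this choice, with Arg1 typical of alternatively activated and Nos2 of classically activated cells. Ornithine decarboxylase (Odc1) turns ornithine into putrescine, and spermidine synthase (Srm) and spermine synthase (Sms) extend it to the larger polyamines. Antizyme (Oaz1) sends ornithine decarboxylase to the proteasome, antizyme inhibitor (Azin1) holds antizyme back, and the acetyltransferase encoded by Sat1 starts polyamine breakdown and export. The acinar pancreas is known for a very high polyamine content.

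Library totals, recovered from the table, ran from 30469002 to 34359802 reads. The values are RPKM, reads scaled to the gene's length and to the library's total, so levels of different genes can be compared. The 16 acinar markers were all present in every sample, as the pancreas label implies. Anxa1 itself, the targeted gene, was at 4.84, 4.76, 5.21 and 7.13 RPKM in CKO1 to CKO4 and at 8.44, 14.7, 7.05 and 9.74 RPKM in WT1 to WT4, with the lowest WT sample just below the highest CKO sample. WT2 stood apart, with 13.2 RPKM of B and plasma cell markers against 0.142 to 4.54 RPKM in the other samples, and WT4 had the lowest levels of long genes in its group. Their part in the results was not tested. Values without one of these libraries are given beside the Arg1 and Nos2 results and the calls that they change.

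In all, 8513 genes were tested with limma, an empirical Bayes linear model, on log2(RPKM + 1). Of these 610 passed an adjusted p of 0.05 (7.17%), 121 higher in CKO (1.42%) and 489 lower (5.74%). The median log2 difference of all tested genes was -0.12, and centring each library on its median moved it to -0.02 and the calls to 305 higher and 267 lower. The differences of members below are therefore also given after centring. Of the 10 genes 9 were abundant enough to be tested, and 2 of the 9 were called, both lower (Arg1 and Odc1), beside the 7.17% of all tested genes. The 4 CKO values all lay below the 4 WT values for 4 of the 9 (Arg1, Odc1, Oaz1 and Sat1), which held for 16.2% of tested genes (the reverse held for 2.46%). Because the group was built around Arg1, nothing is read from these counts. The median difference of the 9 was -0.36, or -0.26 after centring. The 610 calls became 235 without CKO2, 279 without CKO4, 223 without WT1, 271 without WT2, 326 without WT3 and 280 without WT4.

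**Figure D1:**
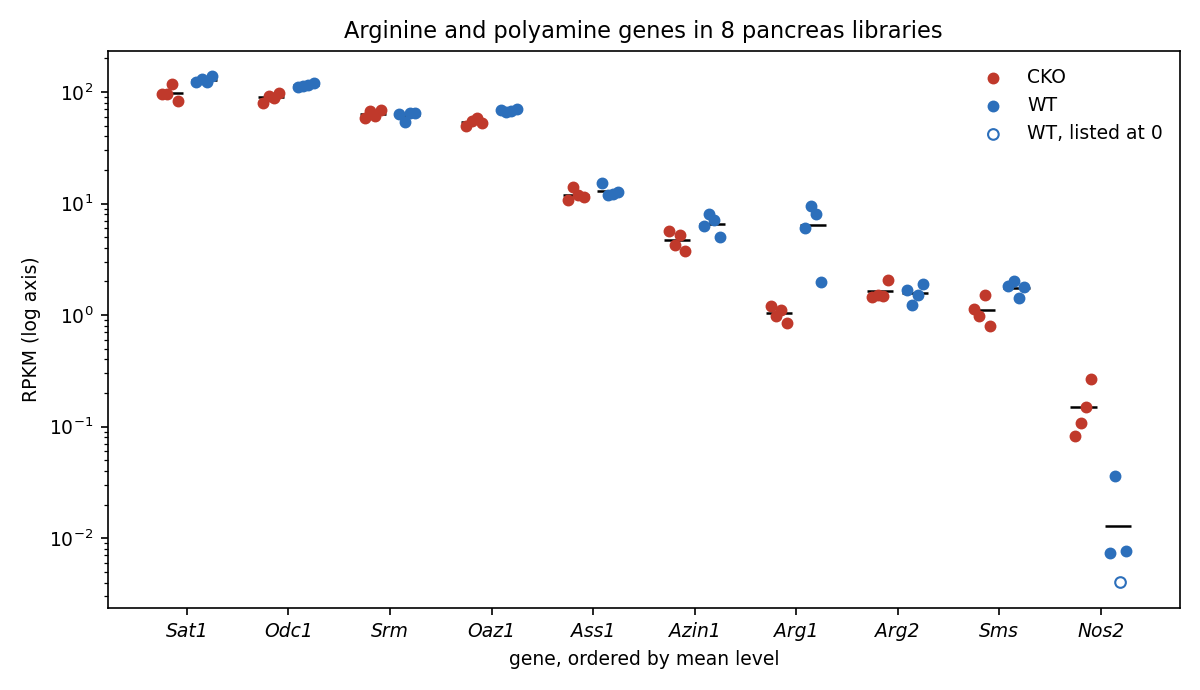
RPKM on a log axis for the 10 genes, ordered by mean level, with 1 point per library (CKO red, WT blue) and a line at each group's mean. Sat1, Odc1, Srm and Oaz1 lie between 49.99 and 139 RPKM, Nos2 lies below 0.266 RPKM throughout, and the open circle at the foot of the axis is WT3, which lists Nos2 at 0.

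Arg1 and Arg2 encode the cytosolic and the mitochondrial arginase. Arg1 (chromosome 10, 24915221 to 24927484, minus strand of mm10) was at 1.21, 0.985, 1.11 and 0.857 RPKM in CKO1 to CKO4. It was at 6.08, 9.45, 8.07 and 1.98 RPKM in WT1 to WT4. All CKO samples lay below all WT samples, and WT4 lay nearer to the CKO samples than to the other WT samples. Mean Arg1 was 1.04 ± 0.152 RPKM for the CKO samples and 6.39 ± 3.25 RPKM for the WT samples (SD, n = 4 each), a 6.14-fold difference in mean level. On the log2(RPKM + 1) scale the difference was -1.72 (SE 0.33), or -1.61 after centring. It was -2.10 without WT4 and -1.50 without WT2. The added 1 RPKM shrinks differences at low levels, and with 0.1 added in its place the difference was -2.31. The coefficient of variation was 14.6% in CKO and 50.9% in WT, but the latter rested on WT4 and was 21.5% without it (chosen after seeing the data).

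Arg2 (chromosome 12, 79130777 to 79156301, plus strand) showed no such gap. It was at 1.44, 1.52, 1.49 and 2.06 RPKM in CKO1 to CKO4 and at 1.66, 1.23, 1.51 and 1.90 RPKM in WT1 to WT4, so the groups overlapped. Its means were 1.63 ± 0.287 and 1.58 ± 0.28 RPKM, with a log2 difference of 0.03 (SE 0.12), or 0.13 after centring. Which arginase transcript was the more abundant therefore differed between the groups. The ratio of Arg1 to Arg2 was 0.836, 0.648, 0.746 and 0.417 in CKO1 to CKO4, so Arg2 was the higher of the pair in each CKO sample. In WT1 to WT4 the ratio was 3.66, 7.68, 5.33 and 1.04. Arg1 was thus the higher in WT1, WT2 and WT3, and the pair stood about level in WT4.

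Nos2 (chromosome 11, 78920787 to 78960254, plus strand), the inducible nitric oxide synthase, was the scarcest of the 10 and stood the other way round. It was at 0.0817, 0.108, 0.15 and 0.265 RPKM in CKO1 to CKO4. In WT1, WT2 and WT4 it was at 0.00731, 0.0362 and 0.00764 RPKM, and WT3 listed it at 0. All CKO samples lay above all WT samples, which held for 2.23% of the 8375 genes too scarce to be tested (the reverse held for 7.57%). These levels rest on few reads, 12, 16, 22 and 36 in the CKO samples and 1, 5, 0 and 1 in the WT samples. Pooled per total reads, 86 against 7 reads make an 11.5-fold difference, with an exact 95% interval of 5.35 to 29.4 that covers counting error only. WT2 held 5 of the 7 WT reads, and without it 86 against 2 reads make a ratio of 29.95, with an interval of 8.04 to 251. Leaving out any of the other libraries gave 8.64 to 13.3. These ratios were added after seeing the data. A count of 3 reads on this gene corresponds to 0.0203 to 0.0229 RPKM, which the WT samples other than WT2 did not reach. Testing needed 1 RPKM in at least 4 samples, which Nos2 reached in none, so it has no fitted difference.

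The other nitric oxide synthases were scarce too. Nos3, the endothelial form, was at 0.518 ± 0.225 RPKM in CKO and 0.612 ± 0.214 RPKM in WT, and Nos1, the neuronal form, was at or below 0.00451 RPKM on average in both groups. In every sample Arg1 transcripts outnumbered Nos2 transcripts per length. The ratio of Arg1 to Nos2 was 14.8, 9.09, 7.4 and 3.23 in CKO1 to CKO4 and 832, 261 and 259 in WT1, WT2 and WT4.

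**Figure D2:**
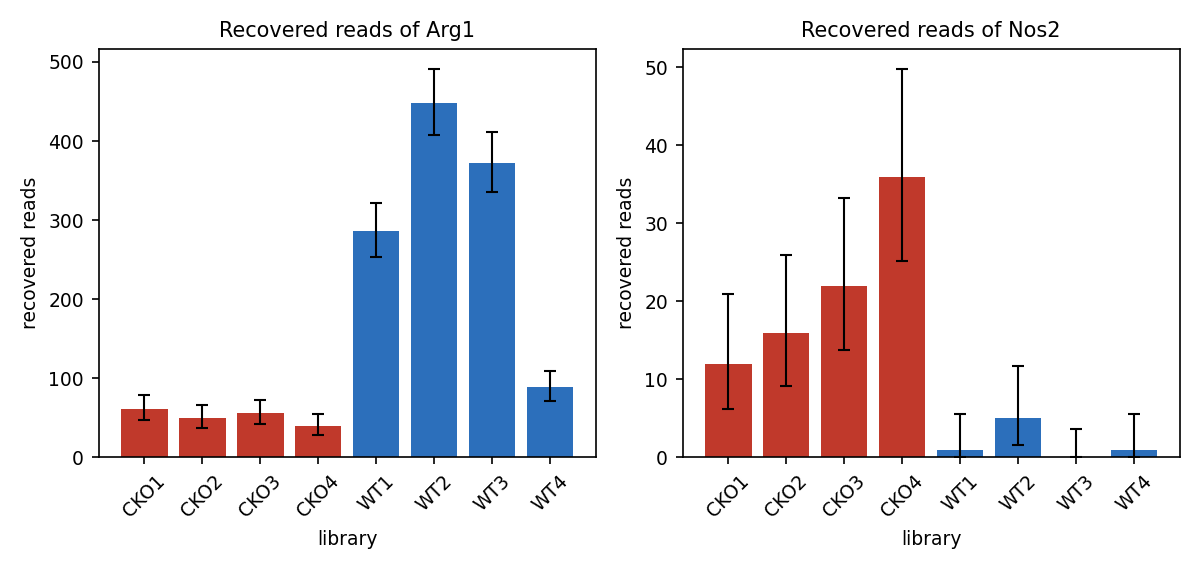
Recovered reads per library for Arg1 (left) and Nos2 (right), with CKO bars in red, WT bars in blue and exact 95% Poisson intervals that cover counting error only. Arg1 has 40 to 61 reads in CKO and 89 to 448 in WT, and Nos2 has 12 to 36 reads in CKO and 0 to 5 in WT.

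In whole tissue, fewer cells of a type and less RNA per cell cannot be told apart, and summed myeloid markers ran lower in CKO along with Arg1. Of all tested genes 70.4% had a negative log2 difference, and the marker counts that follow stand beside that share. These counts also include markers too scarce to be tested, which that share leaves out. The 18 monocyte and macrophage markers summed to 216 to 431 RPKM in CKO and 388 to 734 RPKM in WT, and 17 of the 18 had a lower mean in CKO (2 of 16 tested were called lower, Ccr2 and Tyrobp). Lyz2 was the largest part of this sum, at 109 to 250 RPKM in CKO and 206 to 434 RPKM in WT. The sum, and Arg1 set against it below, therefore rests largely on this gene. The promoter that drives Cre is not given, so whether the Cre allele itself alters Lyz2 is unknown and was not tested. No marker of that list was at 0 in any sample. The 10 markers of alternatively activated macrophages summed to 30.2 to 68.2 RPKM in CKO and 60.3 to 122 RPKM in WT, with 8 of 10 lower in CKO. Of 5 tested, 1 was called lower, Ccl24. Mrc1 and Cd163 are in both macrophage lists, so the counts are not separate. The 13 neutrophil markers summed to 15.9 to 53.1 RPKM in CKO and 41.2 to 88 RPKM in WT, with 12 of 13 lower in CKO. Only 7 of them were abundant enough to be tested, and 0 were called. Of the neutrophil list, 6 markers were at 0 in at least 1 CKO sample and 5 in at least 1 WT sample, and Ly6g was at 0 in 3 CKO samples and 2 WT samples. The part of these cells in the Arg1 difference was not tested.

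Within the CKO group the sample with the lowest macrophage sum, CKO1, had the highest Arg1. Arg1 per 100 RPKM of macrophage markers was 0.56, 0.26, 0.258 and 0.255 in CKO1 to CKO4. It was 1.57, 1.29, 1.93 and 0.371 in WT1 to WT4, so the groups overlapped on this scale through WT4 and CKO1. WT4 held the second highest macrophage sum (532 RPKM, of which Lyz2 was 341 RPKM) but the lowest neutrophil sum of the WT samples (41.2 RPKM). Nos2 was higher in the CKO samples, where the macrophage and neutrophil sums ran lower with overlapping ranges. Hepatocytes also make Arg1, and 8 of their markers apart from Ttr, which islets express too, summed to 0.298 to 5.08 RPKM in CKO and 0.688 to 4.92 RPKM in WT. Albumin (Alb) was at most at 0.476 RPKM, in CKO4.

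**Figure D3:**
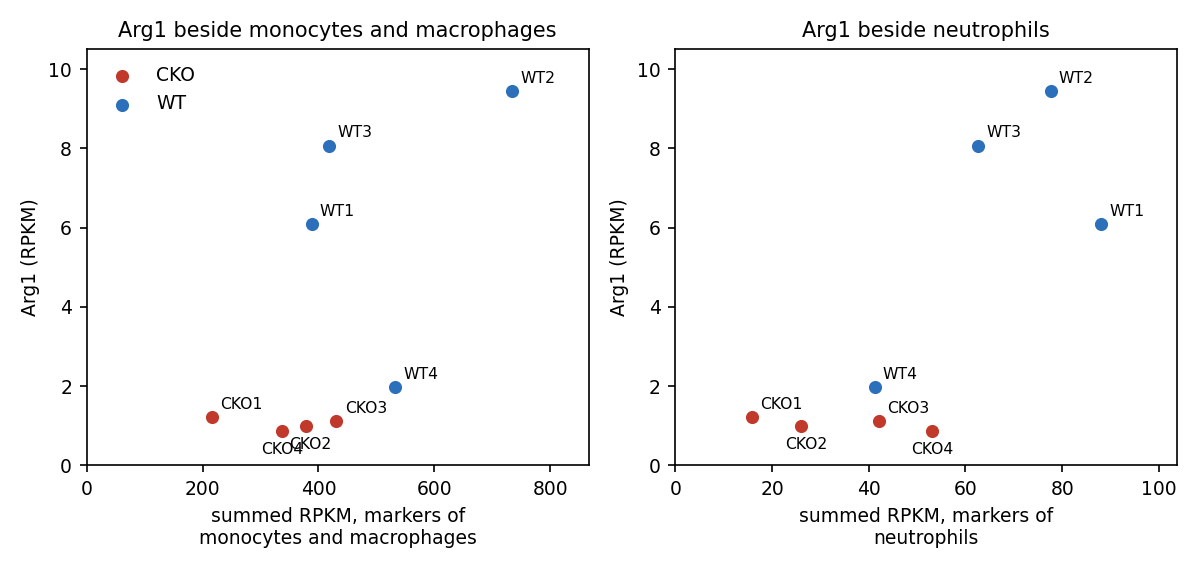
Arg1 level in RPKM against the summed RPKM of monocyte and macrophage markers (left) and of neutrophil markers (right), 1 point per library, CKO red and WT blue. The 4 CKO libraries stay at or below 1.21 RPKM of Arg1 while the macrophage sum runs from 216 to 431 RPKM, and WT4 has 1.98 RPKM of Arg1 at a sum of 532 RPKM.

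Ass1 (chromosome 2, 31470207 to 31520672, plus strand), which rebuilds arginine from citrulline, was at 10.8, 13.9, 11.8 and 11.5 RPKM in CKO1 to CKO4 and at 15.4, 12.05, 12.2 and 12.7 RPKM in WT1 to WT4. The groups overlapped, with means of 11.99 ± 1.37 and 13.1 ± 1.59 RPKM and a log2 difference of -0.11 (SE 0.12), or -0.01 after centring. Its partner Asl, argininosuccinate lyase, was at 10.52 RPKM in CKO and 10.4 RPKM in WT on average. In every sample Ass1 was thus more abundant than either arginase.

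The first step into polyamines is ornithine decarboxylase, and its transcript was lower in every CKO sample than in any WT sample. Odc1 (chromosome 12, 17544794 to 17551505, plus strand) was at 80.2, 91.7, 88.8 and 98.1 RPKM in CKO1 to CKO4. It was at 111, 112, 116 and 121 RPKM in WT1 to WT4. The difference was small, with a mean of 89.7 ± 7.42 RPKM in CKO, which is 0.779 times the 115 ± 4.57 RPKM in WT. The log2 difference was -0.36 (SE 0.10), and centring brought it to -0.26.

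The regulators of the enzyme stood lower along with it. Oaz1 (chromosome 10, 80826656 to 80829290, plus strand), the antizyme, was at 49.99, 55.2, 58.1 and 52.8 RPKM in CKO1 to CKO4 and at 68.6, 66.8, 67.7 and 70.3 RPKM in WT1 to WT4. The groups did not overlap, and the log2 difference was -0.34 (SE 0.10), or -0.23 after centring. Azin1 (chromosome 15, 38487427 to 38519266, minus strand), the antizyme inhibitor, was at 5.69, 4.24, 5.17 and 3.79 RPKM in CKO1 to CKO4 and at 6.24, 8.08, 7.18 and 4.98 RPKM in WT1 to WT4. Its groups overlapped through WT4, with a log2 difference of -0.41 (SE 0.15), or -0.30 after centring. The ratio of Odc1 to Oaz1 was 1.53 to 1.86 in CKO and 1.62 to 1.73 in WT, so the enzyme and its antizyme differed in about the same proportion. Antizyme protein also depends on a polyamine-driven frameshift during translation, which RNA levels do not show.

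Sat1 (chromosome X, 155213132 to 155216449, minus strand), at the breakdown end, had the highest mean of the 10, although Odc1 was above it in CKO4. It was at 95.9, 95.6, 118 and 82.5 RPKM in CKO1 to CKO4 and at 123, 130, 122 and 139 RPKM in WT1 to WT4. The gap between the groups was narrow, since CKO3 reached 118 RPKM and WT3 lay at 122 RPKM. The means were 97.9 ± 14.5 and 128 ± 7.77 RPKM and the log2 difference was -0.40 (SE 0.12), or -0.29 after centring.

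Markers of other pancreatic cells are set beside Odc1, Oaz1 and Sat1, and their sums overlapped between the groups. The 7 duct cell markers summed to 290 to 528 RPKM in CKO and 520 to 638 RPKM in WT, with 6 of 7 lower in CKO. Of 6 tested, 1 was called lower, Sox9. The 7 islet cell markers summed to 1303 to 2051 RPKM in CKO and 855 to 1646 RPKM in WT, with 7 of 7 higher in CKO. Of 7 tested, 1 was called higher, Gcg. The acinar sums overlapped, at 363196 to 423729 RPKM in CKO and 370974 to 404412 RPKM in WT. Of the 16 acinar markers 7 were lower in CKO and 9 higher, and 1 was called lower, Amy2a5 (limma adjusted p = 0.00541). Amy2a5 was at 214 to 409 RPKM in CKO and 542 to 595 RPKM in WT, far below the sums. No marker of these 3 lists was at 0 in any sample. The part of these cells in the differences of Odc1, Oaz1 and Sat1 was not tested.

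Odc1, Oaz1 and Sat1 had separate groups and lay in the same direction, so the sequence before their transcription start is shown. It is taken from RefSeq on GRCm38.p6, which held an entry for 5 of the 10 genes, and runs to the base before the gene in the annotation. Capitals mark GC boxes (GGGCGG) and TGACG, a part of the full cyclic AMP response element, searched on both strands. The window of Odc1 is chr12:17544623-17544793 on the plus strand, that of Oaz1 chr10:80826406-80826655 on the plus strand and that of Sat1 chrX:155216450-155216699 on the minus strand.
Odc1: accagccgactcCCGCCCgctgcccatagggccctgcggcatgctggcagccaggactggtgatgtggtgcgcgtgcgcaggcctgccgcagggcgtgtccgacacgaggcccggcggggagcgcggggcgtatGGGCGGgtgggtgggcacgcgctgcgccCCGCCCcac
Oaz1: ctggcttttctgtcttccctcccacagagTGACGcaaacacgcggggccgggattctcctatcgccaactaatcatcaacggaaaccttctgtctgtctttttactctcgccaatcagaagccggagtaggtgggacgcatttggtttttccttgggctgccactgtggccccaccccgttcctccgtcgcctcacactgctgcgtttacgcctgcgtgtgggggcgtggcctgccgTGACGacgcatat
Sat1: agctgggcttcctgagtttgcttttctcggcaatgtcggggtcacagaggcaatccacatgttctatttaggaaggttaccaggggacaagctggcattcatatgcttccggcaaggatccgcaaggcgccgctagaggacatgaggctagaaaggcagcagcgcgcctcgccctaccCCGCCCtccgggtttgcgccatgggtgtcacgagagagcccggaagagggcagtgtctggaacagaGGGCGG

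None of the motifs searched was in all 3 windows. Odc1 held 3 GC boxes in 171 bases, where 19.6% of all windows of that length held at least 1, and Sat1 held 2 in 250 bases, where 32.7% did. G and C made up 77.2% of the Odc1 window and 59.6% of the Sat1 window. The medians for windows of these lengths were 50.9% and 52.4%, and the shares are not adjusted for this. Oaz1 held 2 copies of TGACG and 0 GC boxes, and 17.8% of windows of 250 bases held TGACG. The E-box bound by Myc (CACGTG), the TATA box (TATAAA) and the motif of C/EBP factors (TTGCNNAA) were in none of the 3, which says only that these letters are not in these windows.

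The synthases that lengthen putrescine did not stand alike. Srm (chromosome 4, 148591503 to 148594993, plus strand) was at 58.7, 67.1, 61.0 and 68.9 RPKM in CKO1 to CKO4 and at 63.6, 54.3, 64.7 and 64.6 RPKM in WT1 to WT4. The groups overlapped, with a log2 difference of 0.05 (SE 0.11), or 0.15 after centring. Sms (chromosome X, 157443855 to 157492287, minus strand) was at 1.14, 0.973, 1.51 and 0.792 RPKM in CKO1 to CKO4 and at 1.82, 2.03, 1.42 and 1.78 RPKM in WT1 to WT4. Its groups overlapped only through CKO3 and WT3, and its log2 difference was -0.40 (SE 0.13), or -0.30 after centring. The added 1 RPKM shrinks differences at such low levels, and with 0.1 added in its place the difference of Sms was -0.65. GENCODE lists a processed pseudogene for Sms and for Oaz1, neither with a row of its own, so the levels of Sms and Oaz1 are uncertain to the extent that reads were shared with these copies.

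The ratios within a sample show how unequal these differences were. Per length, Srm was 40.3 to 87 times as abundant as Sms in CKO and 26.7 to 45.7 times in WT. The ratio of Odc1 to Srm was 1.37, 1.37, 1.46 and 1.42 in CKO1 to CKO4 and 1.75, 2.06, 1.79 and 1.88 in WT1 to WT4. These groups did not overlap, and a ratio within a library does not depend on the scaling between libraries. The ratio of Odc1 to Azin1 overlapped (14.1 to 25.9 in CKO, 13.9 to 24.4 in WT). So did that of Odc1 to Sat1 (0.755 to 1.19 in CKO, 0.865 to 0.949 in WT). How many gene pairs in the table separate in this way was not counted. In order of the mean over all 8 samples the 10 genes ran Sat1, Odc1, Srm, Oaz1, Ass1, Azin1, Arg1, Arg2, Sms and Nos2. The order differed by group, with Oaz1 (68.3 ± 1.49 RPKM) above Srm (61.8 ± 5.03 RPKM) in WT and with Arg1 below Arg2 and Sms in CKO. Azin1 and Arg1 did not differ beyond their spread in WT (6.62 ± 1.33 and 6.39 ± 3.25 RPKM), and in CKO the level of Arg1 (1.04 RPKM) was within the spread of Sms (1.10 ± 0.307 RPKM).

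**Figure D4:**
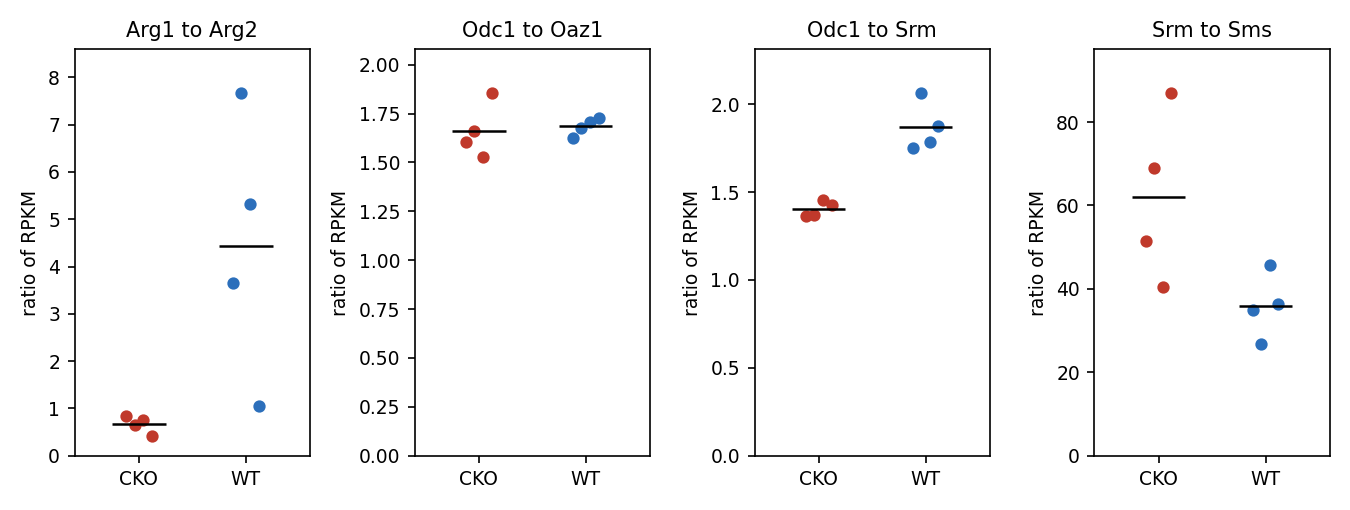
Ratios of RPKM within each library for 4 gene pairs, 1 point per library (CKO red, WT blue) with a line at each group's mean and axes starting at 0. The ratio of Odc1 to Oaz1 overlaps between the groups, while that of Odc1 to Srm is 1.37 to 1.46 in CKO and 1.75 to 2.06 in WT.

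Around the 10 genes, 61 other genes of the same pathways and their regulators were tested in the limma fit. Of these 1 rose and 4 fell (8.20% called, beside 7.17% of all tested genes), and their median log2 difference of -0.12 was that of all tested genes. By limma-voom on the recovered reads 4 were called. The count was 1 without CKO2, 8 without CKO3, 3 without CKO4, 1 without WT1 and 2 without WT2, WT3 or WT4.

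In the arginine synthesis and urea cycle list 1 of 6 fell. This was Slc25a15, the carrier that exchanges ornithine across the mitochondrial membrane, at 1.87, 1.74, 1.99 and 2.22 RPKM in CKO1 to CKO4 and at 3.41, 2.94, 3.12 and 2.66 RPKM in WT1 to WT4 (log2 difference -0.45, SE 0.11, limma adjusted p = 0.0332). All 4 CKO samples lay below all 4 WT samples. Leaving out CKO2 gave an adjusted p of 0.103, WT1 0.109, WT2 0.0675 and WT3 0.0808, and centring gave 0.0817. Glutamate dehydrogenase (Glud1) was at 44.3 ± 5.67 against 56.6 ± 1.3 RPKM (adjusted p = 0.0694, or 0.0319 with CKO3 left out and 0.0361 with totals without acinar marker genes). It missed the threshold in the other 7 fits that left out a library (limma adjusted p up to 0.151). The aspartate and glutamate carrier Slc25a13 was at 1.96 ± 0.576 against 2.75 ± 0.287 RPKM (adjusted p = 0.145).

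Among 7 genes of arginine and ornithine use, 1 fell. Slc6a8, the creatine transporter, was at 5.36 ± 0.948 RPKM in CKO and 7.96 ± 0.741 RPKM in WT (log2 difference -0.50, SE 0.13, limma adjusted p = 0.0413), with no overlap between the groups. It missed the threshold in 7 of the 8 fits that left out a library, all but that without CKO3, with an adjusted p of up to 0.105. Fits without the low-value filter (adjusted p = 0.0721) and by limma-voom (0.0512) missed it too. Gamt, which completes creatine, was at 33.9 ± 4.68 against 43.0 ± 6.48 RPKM (adjusted p = 0.14). Aldh18a1, which leads from glutamate towards ornithine and proline, was at 40.4 ± 9.47 against 31.2 ± 5.7 RPKM (adjusted p = 0.254, or 0.0391 with CKO1 left out). It missed the threshold in the other 7 fits that left out a library (limma adjusted p up to 0.461).

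Of 6 cationic amino acid transport genes, 0 passed by limma and 0 by limma-voom, with 1 at an unadjusted p under 0.05. That was the arginine transporter Slc7a3 (15.3 ± 3.55 against 19.4 ± 1.27 RPKM, adjusted p = 0.155, and 0.0456 without CKO3). Slc7a3 missed the threshold in the other 7 fits that left out a library (limma adjusted p up to 0.300). The more abundant arginine transporter Slc7a1 was at 36.1 ± 9.55 against 25.4 ± 8.28 RPKM (adjusted p = 0.214). Slc3a2, the heavy chain of Slc7a6 and Slc7a7 and not of Slc7a1 or Slc7a3, was at 56.2 ± 8.9 against 45.8 ± 7.42 RPKM (adjusted p = 0.21). The list of nitric oxide synthesis and its cofactor likewise had 0 of 6 by both tools and 1 at an unadjusted p under 0.05, Spr, which makes the cofactor tetrahydrobiopterin (6.05 ± 0.699 against 7.46 ± 0.647 RPKM, adjusted p = 0.168). In that list Nosip and Nostrin, which bind and relocate the endothelial synthase, had an adjusted p of 0.30 and 0.321, and the most abundant gene, the reductase Cyb5r3, was at 18.6 ± 4.04 against 17.5 ± 1.98 RPKM (0.81).

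Of 7 genes of polyamine synthesis, breakdown and transport, 1 fell. Amd1 makes the decarboxylated S-adenosylmethionine that both Srm and Sms consume. It was at 10.4, 10.8, 11.9 and 9.78 RPKM in CKO1 to CKO4 and at 15.9, 15.5, 14.3 and 15.6 RPKM in WT1 to WT4 (log2 difference -0.48, SE 0.10, limma adjusted p = 0.0223). The WT mean was 1.43 times the CKO mean, and the groups did not overlap. Leaving out CKO2 gave an adjusted p of 0.0597, WT1 0.0735, WT2 0.0576 and WT4 0.0536. Any reads shared with the near-identical Amd2, at 0.0885 ± 0.0189 against 0.172 ± 0.0545 RPKM, would leave the split between the pair uncertain. Spermine oxidase (Smox) was at 8.87 ± 2.3 against 12.7 ± 2.2 RPKM (adjusted p = 0.0981, or 0.0404 with CKO3 left out). Smox missed the threshold in the other 7 fits that left out a library (limma adjusted p up to 0.243). Polyamine oxidase (Paox) was at 2.33 ± 0.514 against 3.14 ± 0.227 RPKM (adjusted p = 0.125), and the second antizyme Oaz2 at 18.4 ± 5.28 against 16.2 ± 1.77 RPKM (adjusted p = 0.619).

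Next to the polyamine steps lie the methionine cycle, which supplies S-adenosylmethionine, and the hypusine modification of the translation factor eIF5A, which is built from spermidine. Of 9 methionine cycle and salvage genes 0 passed by limma or limma-voom and 1 had an unadjusted p under 0.05, the S-adenosylmethionine synthetase Mat2a (44.6 ± 11.5 against 71.2 ± 21.3 RPKM, adjusted p = 0.107, or 0.0308 with WT2 left out). Mat2a missed the threshold in the other 7 fits that left out a library (limma adjusted p up to 0.235). Apip and Mri1, of the salvage branch, followed with an adjusted p of 0.272 and 0.293. Of the 3 hypusine genes 0 passed by either tool and 2 had an unadjusted p under 0.05. Eif5a was at 151 ± 12.5 against 184 ± 7.29 RPKM (adjusted p = 0.0888), and deoxyhypusine synthase (Dhps) was at 5.58 ± 1.07 against 7.0 ± 0.209 RPKM (adjusted p = 0.155). Deoxyhypusine hydroxylase (Dohh) was at 11.6 ± 1.28 against 13.8 ± 1.29 RPKM (adjusted p = 0.22).

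**Figure D5:**
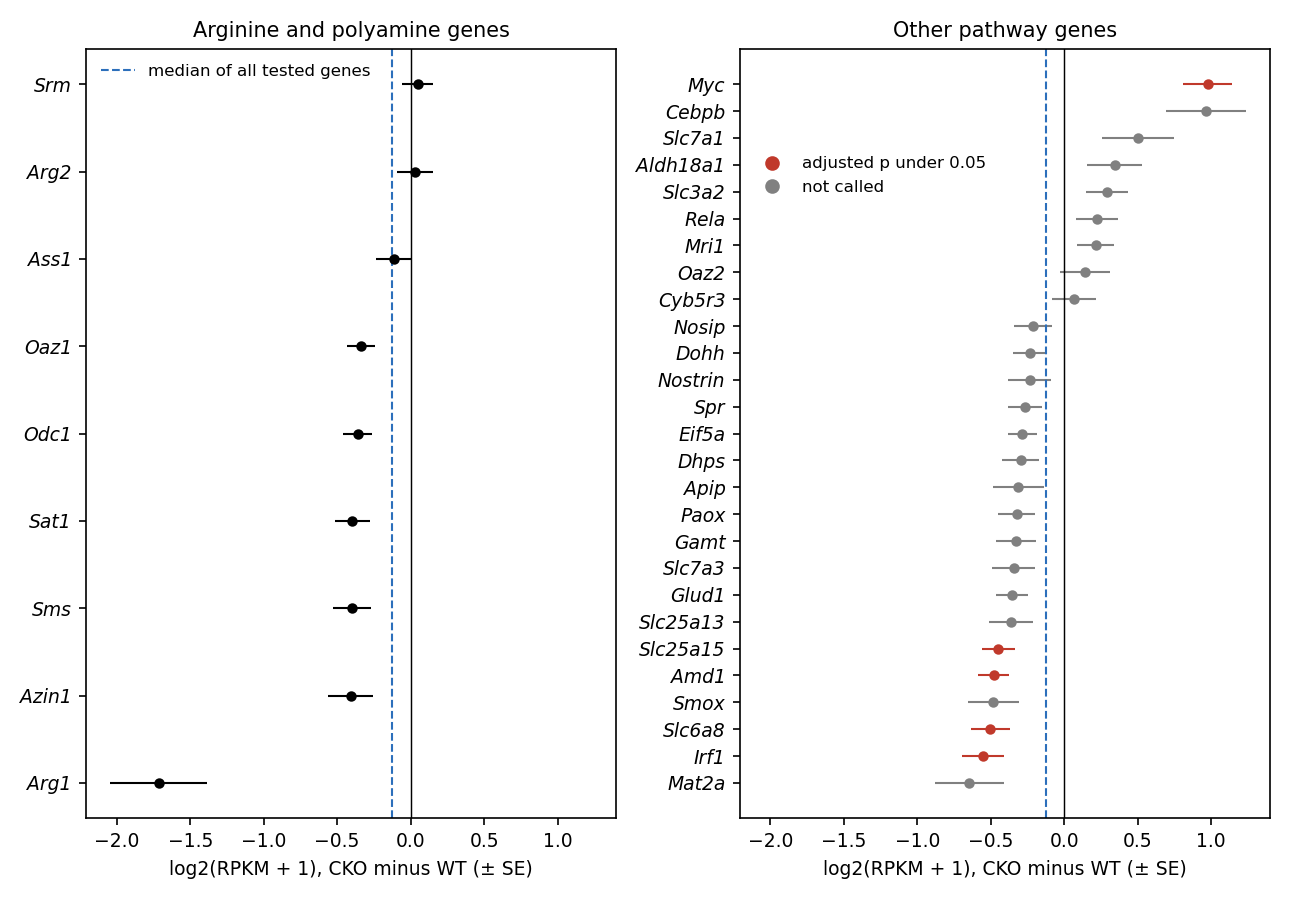
Difference in log2(RPKM + 1), CKO minus WT, with its SE, for the 9 arginine and polyamine genes with a fit (left, shown as a description) and the named genes of the other pathway lists (right, red where the adjusted p is under 0.05). The dashed line is the median of all tested genes at -0.12, and Arg1 at -1.72 lies farthest from it on the left.

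Factors known to act on Arg1, Nos2 or Odc1 formed the last list, in which 1 of 17 rose and 1 fell. Myc, an activator of Odc1 transcription, rose 2.07-fold, from 11.5, 7.06, 10.3 and 9.34 RPKM in WT1 to WT4 to 14.8, 19.9, 19.4 and 24.98 RPKM in CKO1 to CKO4 (log2 difference 0.98, SE 0.17, limma adjusted p = 0.00808). The call held in all 8 fits that left out a library, with an adjusted p of 0.00189 to 0.0292. Its known target Odc1 thus stood lower in the same samples. Irf1, an interferon-induced activator of Nos2, fell from 4.02 ± 0.723 to 2.42 ± 0.521 RPKM (log2 difference -0.56, SE 0.14, limma adjusted p = 0.0392), while Nos2 stood higher. This call was lost in 7 of the 8 fits that left out a library, all but that without CKO3 (adjusted p up to 0.0966), and with no filter on low values (0.0754). Cebpb, a factor that binds the Arg1 gene in macrophages, was at 45.04 ± 15.8 against 21.7 ± 4.83 RPKM (adjusted p = 0.0574, 0.00133 without CKO1, 0.0411 after centring and 0.0425 with totals without acinar marker genes). Cebpb missed the threshold in the other 7 fits that left out a library (limma adjusted p up to 0.135). The most abundant gene of the list was Rela, a subunit of NF-kappaB, at 93.1 ± 17 against 79.1 ± 10.6 RPKM (adjusted p = 0.329).

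The genes whose profile over the 8 libraries lay nearest to that of Arg1 were Fermt1, Sema7a, Id2, Crct1 and H1f2. Nearness was measured as the root mean square distance between log2(RPKM + 1) values, each gene centred on its own mean. The distances were 0.464 to 0.514, against a median of 0.938 over all tested genes, and since all 5 have lower levels in CKO they mainly share the group difference. The other members lay farther off, from 0.743 for Azin1 to 1.06 for Arg2. Within the groups the nearest were Zmiz1, Hspg2, Wnk1, Creb3l2 and Ace, at 0.179 to 0.247 against a median of 0.49. These share the low value of WT4: Zmiz1, for example, was at 2.40 RPKM in WT4 and 4.86 to 7.52 RPKM in the other WT samples. Genes of at least 5000 bases, which include all of these but Creb3l2 (3318 bases), had a median deviation from the group mean of -0.20 on the log2 scale in WT4 and -0.18 in CKO1. Genes under 1500 bases, among them Arg1 (1477 bases), had a median deviation of 0.06 in WT4 and -0.06 in CKO1. The part of gene length in these distances was not tested.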

How the data were processed

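RNA of 8 pancreas samples was sequenced, and the submitters' processing notes name build mm10. The aligner, counter and annotation were not given in the sources used here. RPKM is the unit of the deposited values, inferred because 16059 of 16068 genes with reads in 2 or more libraries (99.94%), all 10 members among them, gave whole reads within 0.05 at one gene length and library total. The length was searched for each gene, so genes with reads in few libraries could hardly fail and add little to this share. Those totals are the depths used. Reads summed over genes came to 100.03% to 100.10% of them. 1 unnamed value column was left out.

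A gene was tested where 4 or more libraries reached 1 RPKM. The fit used limma 3.58.1 in R 4.3.3 on log2(RPKM + 1), with a term for group alone, robust variances with a mean trend, and Benjamini-Hochberg adjustment over all tested genes. The steps were also run on simulated data, with independent counts of a fixed spread and no difference in quality between libraries. That run therefore does not show how reliable the calls in these samples are. Positions are from GENCODE M21. Python 3.11.15 was used for the rest.

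The members, the 8 pathway lists and the 13 marker lists were chosen with earlier results of these data known. Named beside the members are up to 3 genes with the smallest unadjusted p, all called genes and the most abundant gene of each list, and the 5 nearest to Arg1 by each measure. Other genes named, such as Asl, Nos1, Nos3, Amd2 and single markers, were chosen after their values were seen. The alternatives are listed at the end.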

Additional observations from a re-analysis of the deposited data

Results flagged for a closer look

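A single sample lay far from the other 3 of its group for 2 of the members (Dixon's gap test at 95%, which flags about 1 in 20 groups by chance; 30 groups of 4 were examined). Arg2 was at 2.06 RPKM in CKO4, against 1.44 to 1.52 RPKM in the other CKO samples, and its log2 difference was -0.05 without CKO4 in place of 0.03. Srm was at 54.3 RPKM in WT2, against 63.6 to 64.7 RPKM in the other WT samples, and its log2 difference was -0.01 without WT2 in place of 0.05.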

How the results depend on the processing

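The alternatives were no low-value filter, a mean of at least 2 RPKM, a pseudocount of 0.1, no mean trend, the replicate number as a block, median centring, totals without acinar marker genes, limma-voom on recovered reads and leaving out each library. Of 142 alternative log2 differences of the 9 fitted members, 136 moved by less than the spread between replicates and 6 by more. The 6 were Arg1 (-2.31 with a pseudocount of 0.1 and -2.41 by limma-voom), Sms (-0.65 and -0.70 under the same settings), and Odc1 (-0.26) and Oaz1 (-0.23) with median centring. Arg1 and Odc1 kept their sign in all of them, while Arg2 (-0.05 without CKO4, -0.04 without WT2) and Srm (-0.01 without WT2) crossed 0. The count of called members, 2, was 1 by limma-voom and 1 with median centring. The 610 called genes became 970 with totals without acinar marker genes, and 223 to 705 when a library was left out. The 5 called pathway genes became 3 with no filter on low values, and 1 to 8 when a library was left out. Of the uncalled genes that the naming rule picked, Cyb5r3 (0.06, and -0.058 to 0.18 when a library was left out) and Oaz2 (0.14, and -0.020 to 0.29) changed sign without CKO3; the cause was not tested. Asl, named beside Ass1, also crossed 0 (-0.014 to 0.048), and pathway genes not named were not tallied here. With the replicate number as a block 548 genes and 5 pathway genes were called. The numbers did not pair the samples: same-numbered samples' deviations correlated at -0.12, -0.32, 0.14 and 0.03, and 1 of 4 CKO samples correlated best with its own number. In the block fit Slc25a15 missed the threshold (adjusted p = 0.0528) and Smox passed it (0.0384). Depth limits Nos2, whose 0 to 5 reads per WT sample give a direction but no precise fold.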
